A study of Schizosaccharomyces pombe
Saccharomyces cerevisiae with 8 samples.

Results

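Dubious open reading frames are stretches of the yeast genome that could be read as protein but are annotated as unlikely to encode one. The members are the features of the total RNA table whose description holds the word "dubious", that lie off the mitochondrial chromosome and that had a mean of at least 10 reads over the 4 total RNA libraries. They number 117 of the 6518 features listed and of the 5589 that reached this mean and were tested. In all, 483 features off the mitochondrial chromosome carry the word, and 366 of them stayed under the minimum. Just outside it lay YDL221W, YNL171C and YOR072W-A with means of 9.75, 9.5 and 9.25 reads, and just inside it lay YOR364W, YOR379C and YNL114C with 10 reads each. Of the members, 115 are called dubious in their own description. The other 2, YLR040C, described as a MATalpha-specific a-factor blocker, and YPR170W-B, a protein of unknown function, are named there as neighbours of dubious frames.

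Yeast genes lie close together, and most dubious frames were annotated from sequence inside, across or directly beside a verified gene. A read in such a frame can therefore belong to an RNA that was started for another purpose: the overlapped gene's own transcript, the untranslated end of the gene next to it, or an antisense RNA. Mediator is the multi-subunit complex that connects activators to RNA polymerase II at promoters. Its subunits Med14, a backbone subunit, and Med17, a head subunit, are needed for its function at most genes.

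The study depleted both subunits at once in Saccharomyces cerevisiae with an auxin-inducible degron, a tag that the rice receptor OsTIR1 marks for destruction when auxin is present. All libraries came from the same MATalpha strain, which carries OsTIR1 under the GPD1 promoter and tagged copies of both genes (MED14-3HA-IAA7 and MED17-3V5-IAA7), so no untagged cells are included. Cells received 500 µM auxin or its carrier DMSO for 30 min, then 5 mM 4-thiouracil (4tU), a label for new RNA, for 6 min, and were mixed with Schizosaccharomyces pombe cells at 1 to 3 before extraction. There were 2 libraries each of total RNA after auxin, total RNA after DMSO, newly synthesized RNA after auxin and newly synthesized RNA after DMSO. The total RNA libraries held 10862028 to 17491251 reads in listed features. The MATalpha markers STE3 and MF(ALPHA)1 had 569 to 4608 reads in each total RNA library, while the a-cell markers BAR1 and AGA2 had 10 to 22 and at most 1. The mRNAs of the tagged genes were 1.27 (SE 0.195; RGR1, the name of MED14 in the table) and 1.90 (SE 0.196; SRB4, MED17) lower on the log2 scale after auxin; the degron acts on the proteins, so these values do not check the depletion. With 2 libraries a group, the p-values measure the spread between these libraries only.

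Most dubious frames fell after auxin in total RNA, less far than the typical yeast feature. By edgeR's quasi-likelihood test with Benjamini-Hochberg adjustment over all tested features, 86 of the 117 members were lower, 6 were higher and 25 passed the threshold of 0.05 in neither direction. Across all tested features, 92.3 percent were called lower and 0.769 percent higher. The minimum of 10 reads was met through the DMSO libraries alone by 25 members, 22 of them called lower, and through the auxin libraries alone by 5, 4 of them called higher; at this depth the minimum itself favours frames that differ. The median log2 fold change was -1.51 over the members, or 2.85-fold lower, with quartiles at -2.10 and -0.64, against -1.85 or 3.61-fold lower over all tested features. In the auxin libraries the median member stood at 34.1% and 38.6% of its DMSO mean, and in the DMSO libraries at 93.4% and 107%. The groups did not overlap, and the exact two-sided permutation test gave p = 0.333, the smallest that 2 against 2 libraries allow. All of these values rest on the authors' size factors. Under TMM, which sets the typical feature to no change, the median of all features moved up by 1.76. The members' median became 0.22, with 37 members higher and 13 lower. It still lay above that of all tested features, but rescaling moves both medians nearly alike, so this order is not a further check.

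The 66 members with a mean of 10 to 50 reads had a median of -1.51 and the 51 members with at least 50 reads had -1.52. Among the other protein-coding features, the 392 with 10 to 50 reads had a median of -2.00 and those with at least 50 had -1.86. Per kilobase of coding length, the median member had 166 normalized reads in DMSO, against 631 for the median tested feature. Members spanned 75 to 1185 bases, with a median of 354.

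The positions in the table split the members by what they overlap. Another listed feature lay on the opposite strand of 70 members and on the same strand of 34, while 13 overlapped none. No member overlapped another member, 7 overlapped more than 1 listed feature, and in 3 the overlapped feature is itself dubious. Among the 70 with a feature on the other strand, 46 were lower, 5 higher and 19 not called, with a median of -1.49. Among the 34 on the same strand as the feature, 31 were lower, 1 higher and 2 not called, with a median of -1.59. Of the 13 that overlap nothing, 9 were lower and none was higher at an unadjusted p under 0.05 (0) or by DESeq2 (0), with a median of -1.17. The library kit keeps the strand, but the sources used here do not give whether the authors counted by strand. Counts of overlapping features could lie far apart. YGL102C is 98.6% inside RPL28, a gene of a ribosomal protein, on the other strand, and had a mean of 11 reads, against 44535 for RPL28. The handling of reads shared by 2 features is not stated, so this frame alone does not show counting by strand. Of 69 opposite-strand members with a level for both features, 13 stood under 5% of the overlapped gene's level per kilobase and 21 above 100%.

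**Figure D1:**
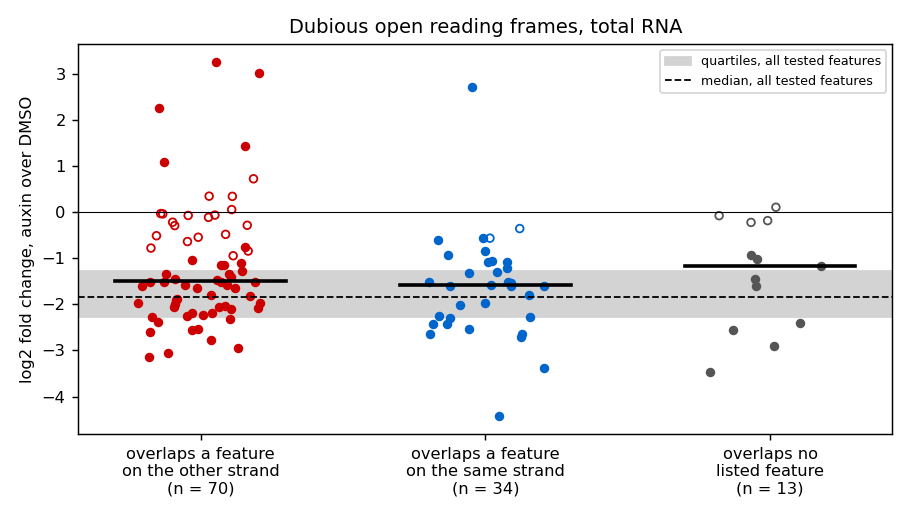
Log2 fold change of each dubious open reading frame in total RNA, auxin over DMSO (vertical axis), by what it overlaps (horizontal axis). Filled points were called at an adjusted p under 0.05, open points were not, thick bars are class medians (-1.49, -1.59 and -1.17), and the dashed line and grey band are the median (-1.85) and quartiles of all tested features on the authors' scaling; under TMM all points move up, the members' median to 0.22.

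Most frames that share the strand of the gene they overlap changed much as that gene did. In 29 of the 31 such pairs with enough reads, no difference in change was called. The fit set both features of a pair side by side in each library, where any scaling cancels. The absolute difference of log2 fold changes had a median of 0.22 and was under 0.5 in 23 pairs. Its median standard error was 0.34 and uncalled differences reached 1.09, so the missing calls do not show equal changes. Spearman's rho across the 31 pairs, which share the same 4 libraries, was 0.79. Pearson's r was 0.49, and 0.85 without YER097W. Over all 147 overlapping pairs of the table, 32 percent differed, and among pairs without a member 12.5 percent on the same strand (1 of 8), 14.3 percent on opposite strands (2 of 14) and 45.5 percent where the strand is not known (15 of 33). How reads in a shared stretch were counted is not stated, and their part in this likeness was not tested. The median absolute difference was 0.19 in the 15 pairs with at least 50% of the member covered and 0.30 in the 16 pairs with less.

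YDR154C was the most abundant member and lies at the end of CPR1, the cytoplasmic cyclophilin (chromosome IV, bases 768403 to 768753, 68.9% inside the gene). Its normalized counts were 8073 and 8918 after auxin, against 10299 and 11461 after DMSO. CPR1 had 2858 and 3594 after auxin, against 4259 and 4860 after DMSO. The auxin libraries were lower in both features without overlap. The log2 fold changes were -0.36 (SE 0.200) for YDR154C, with an adjusted p of 0.0799 by edgeR and 0.0159 by DESeq2, and -0.50 for CPR1. The difference between them was 0.15 (SE 0.150, adjusted p = 0.537 by edgeR over all pairs). The next gene downstream on the same strand, YDR153C, an epsin-like protein of vesicle traffic, stood at -2.07.

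Pairs named next lay close, from nearly unchanged to strongly lowered genes. YML009W-B, YBR206W and YOR309C are among the uncalled pairs with the smallest error, a choice that favours near-equal values. YML009W-B stood at -0.57 and YML010W, a subunit of the Spt4/5 elongation factor, at -0.46. The call of YML009W-B as lower (adjusted p = 0.0140 by edgeR) was lost without DMSO replicate 2, at -0.32, and by DESeq2. YBR206W stood at -0.84 and YBR205W, the mannosyltransferase KTR3, stood at -0.78. YOR309C stood at -0.93 and NOP58, which acts in rRNA and snoRNA maturation, at -1.15. None of these differences was called, with adjusted p-values of 0.821, 0.898 and 0.389 by edgeR.

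Among the most lowered frames on their gene's strand, YMR119W-A had normalized counts of 21.9 and 10.1 after auxin, against 145 and 187 after DMSO. It fell by 3.38 (SE 0.305) on the log2 scale, and YMR119W, the gene of the Asi1 ubiquitin ligase subunit it overlaps, stood at -2.90. YFR052C-A, at the end of hexokinase 1, HXK1, stood at -2.30 against -2.22 for HXK1. YLR252W stood at -2.65 against -2.54 for SYM1, required for ethanol metabolism. YPR146C stood at -2.43 against -2.33 for YPR147C, and YKL076C at -2.42 against -2.17 for YKL075C. In these 5 members every auxin library was below every DMSO library, and none of the 5 differences was called. YBR126W-B could not be compared, because the overlapping YBR126W-A had at most 2 reads in a library; it stood at -0.60 (SE 0.226), a call lost without DMSO replicate 1, at -0.57.

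A pair of members on the same strand as their gene did differ from it. YMR173W-A overlaps 91.6% with DDR48, a stress-responsive gene, and had 454 and 706 normalized counts after auxin, against 1002 and 1428 after DMSO. DDR48 had 145 and 188 after auxin, against 644 and 587 after DMSO. Both were lower in every auxin library, YMR173W-A by less: the difference was 0.84 (SE 0.223, adjusted p = 0.00278 by edgeR). This difference was no longer called without DMSO replicate 1, at 0.51 (adjusted p = 0.106 by edgeR), without auxin replicate 2, at 0.70 (adjusted p = 0.0725), or with limma, at 0.82 (adjusted p = 0.156). The other was YER097W, described with the raised frames, whose difference from its gene was called under each of these.

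Frames antisense to a gene differed from it in 26 of 58 pairs: 19 members stood above their gene, 7 stood below it, and 32 differences were not called. The 19 include YOR345C, YOR139C, YOR041C and YEL053W-A, which met the minimum through auxin reads alone, so the minimum itself favours their place above. It likewise favours a place below for members that met it through DMSO reads alone. The 44.8% called compare with 32 percent over all overlapping pairs, and with 14.3 percent and 45.5 percent in pairs without a member on opposite strands and on unknown strands. The difference was under 0.5 in 21 pairs and under 1 in 33. The median absolute difference was 0.84, and across the 58 pairs r was -0.01 and rho 0.03. By relative level per kilobase in DMSO, differences were called in 5 of 13 members under 5% of the gene, 15 of 35 between 5% and 100%, and 6 of 10 above 100%. The 5 include YOR345C, YOR041C and YEL053W-A, whose few DMSO reads enter both their low level and their place above the gene. Nothing is read from the share under 5%. Among the 17 pairs whose member had at least 50 reads, 7 members stood above, 3 below and 7 were not called. Across these 17 pairs r was -0.46 and rho -0.46. Of the 47 members that overlap the gene's end, 34 were lower and none (0) was higher by edgeR. Of the 20 that overlap its start, 10 were lower and 4 higher, and all 4 met the minimum through their auxin reads alone.

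**Figure D2:**
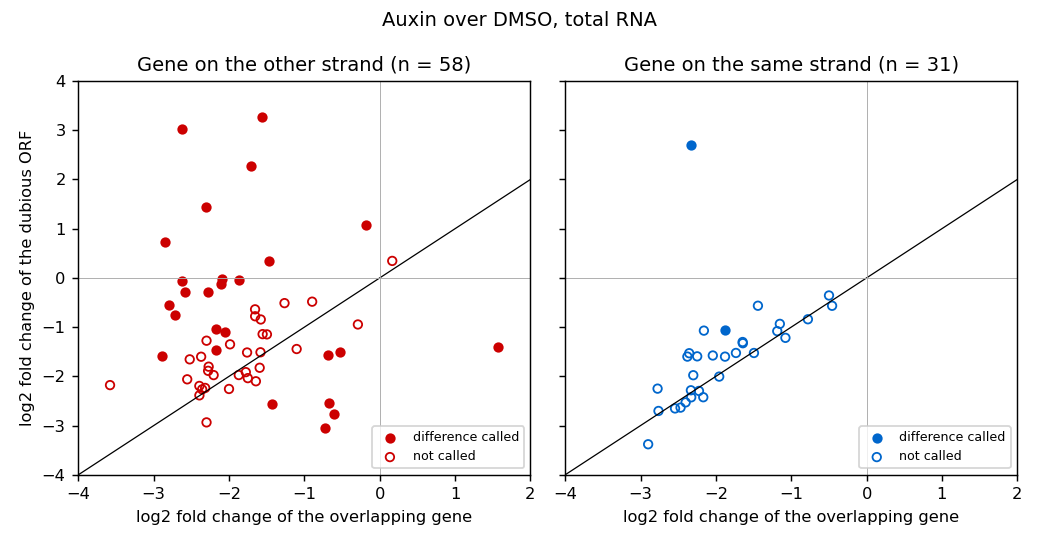
Log2 fold change, auxin over DMSO, of each dubious open reading frame (vertical) against the gene it overlaps (horizontal), for 58 genes on the other strand (left) and 31 on the same strand (right). Filled points are pairs whose difference was called. On the right 23 of 31 pairs lie within 0.5 of the line of equal change, on the left 21 of 58, with points on both sides. Another scaling moves every point along that line.

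YDL158C lies at the end of YDL159W, the MAP kinase kinase of the pheromone pathway, on the opposite strand (chromosome IV, bases 173866 to 174174, 52.8% inside the gene). Its normalized counts were 950.5 and 1109 after auxin, against 967 and 1151 after DMSO. YDL159W had 74.1 and 94.8 after auxin, against 294 and 324 after DMSO. The libraries of YDL158C overlapped between the groups, while YDL159W was lower in both auxin libraries. The log2 fold changes were -0.04 (SE 0.186) and -1.86, a difference of 1.84 (SE 0.223, adjusted p = 1.16e-08 by edgeR). On its own strand, YDL158C begins 57 bases after the coding end of YDL157C, a mitochondrial protein of unknown function, which had 972 and 919 after auxin, against 1019 and 1210 after DMSO. YDL157C stood at -0.24, and the difference from YDL158C was 0.19 (SE 0.143, adjusted p = 0.278).

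YOR121C is antisense to the end of GCY1, a glycerol dehydrogenase (chromosome XV, bases 551798 to 552103, 83.3% inside the gene). It had 565 and 762 normalized counts after auxin, against 619 and 742 after DMSO. GCY1 had 112 and 116 after auxin, against 442 and 532 after DMSO. YOR121C thus overlapped between the groups and GCY1 did not, with log2 fold changes of -0.03 and -2.09 and a difference of 2.05 (SE 0.228, adjusted p = 2.08e-09 by edgeR). PFY1, the gene of the actin-binding protein profilin, ends 194 bases before YOR121C on the same strand and stood at -0.40. That smaller difference, 0.37 (SE 0.128), was also called, with an adjusted p of 0.0368.

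YDL016C is antisense to the end of CDC7, the kinase that fires replication origins (chromosome IV, bases 425570 to 425872, 53.8% inside). It had 650 and 777 normalized counts after auxin, against 1210 and 1213 after DMSO. CDC7 had 85.5 and 81.4 after auxin, against 514 and 584 after DMSO. Both fell, CDC7 much further: -0.76 (SE 0.187) for YDL016C and -2.71 for CDC7, a difference of 1.95 (adjusted p = 3.23e-09 by edgeR). YDL015C, an enoyl reductase of fatty acid elongation 129 bases upstream, stood at -0.91, and its difference from YDL016C was not called (0.15, SE 0.120, adjusted p = 0.331).

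**Figure D3:**
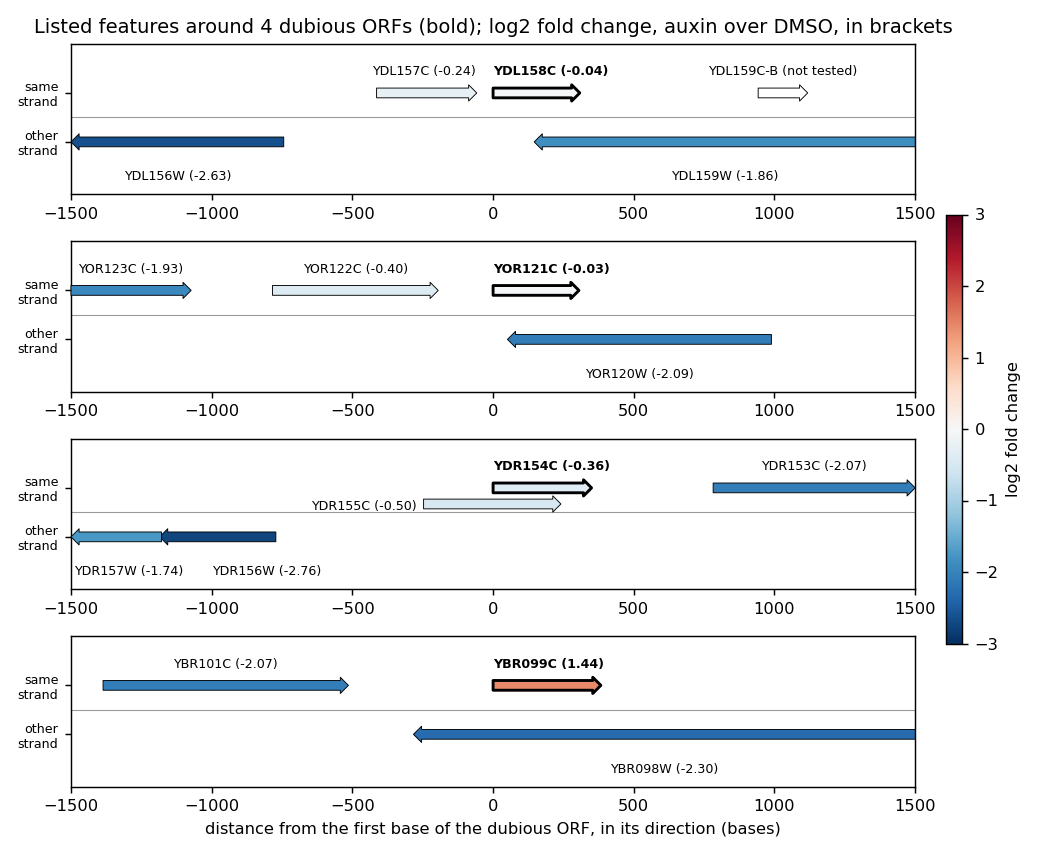
Listed features within 1500 bases of the first base of YDL158C, YOR121C, YDR154C and YBR099C (horizontal axis, bases in the direction of the frame), drawn to scale above the line for the same strand and below it for the other. Colour and the number in brackets give the log2 fold change, auxin over DMSO, on the authors' scaling: YDL158C (-0.04) and YOR121C (-0.03) are near the pale genes before them on their strand and unlike the dark genes below them.

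More frames gave the same contrast in both directions. YMR075C-A, antisense to RCO1 of the Rpd3S histone deacetylase complex, stood at -0.29 against -2.59 for RCO1, and YMR076C, a cohesion factor 142 bases upstream, stood at -0.63. YOL099C stood at -1.03 against -2.17 for PKH2, a protein kinase, and the metalloprotease gene YOL098C upstream of it stood at -1.21. YER148W-A stood at -1.46 against -2.17 for PEA2, a polarisome subunit, and SPT15, the gene of TATA-binding protein upstream, at -1.56. In the other direction, YLR101C stood at -2.56 against -1.43 for ERG27, a sterol reductase, and the anaphase-promoting complex gene YLR102C, 8 bases upstream, at -2.45. All 4 differences from the antisense gene were called (adjusted p = 2.56e-06, 0.00154, 0.0334 and 0.00313 by edgeR), and none of the 4 from the upstream gene was.

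At the neighbouring loci of GLN4, glutamine tRNA synthetase, and YOR171C, a sphingoid base kinase, the contrast runs both ways. YOR169C is antisense to the end of GLN4 and lies downstream of YOR171C. It had 24.7 and 29.4 normalized counts after auxin, against 81.4 and 72.8 after DMSO. It stood at -1.51, between GLN4 at -0.53 and YOR171C at -2.11. Its difference from GLN4 was -1.0 (SE 0.243, adjusted p = 0.00104 by edgeR). Its smaller difference from YOR171C, 0.60 (SE 0.220, adjusted p = 0.0427 by edgeR), was also called. The difference from GLN4 was no longer called without auxin replicate 1, at -0.95, without auxin replicate 2, at -1.06, or with limma, at -0.97 (adjusted p = 0.0573). YOR170W, antisense to YOR171C and downstream of GLN4, stood at -0.11 and was not called. Its difference from YOR171C was 2.00 (adjusted p = 0.000114 by edgeR), and its difference from GLN4 was not called. YOR170W had a mean of 21.5 reads and was chosen after its values were seen.

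**Figure D4:**
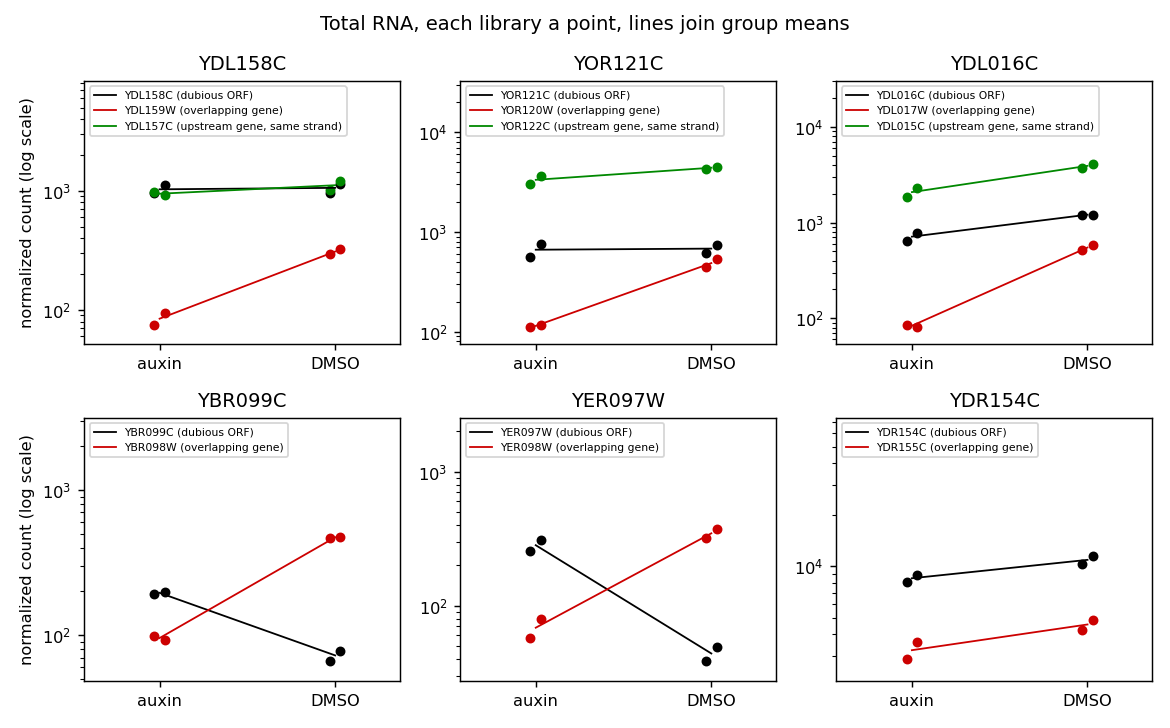
Normalized counts (log scale) in total RNA for 6 dubious open reading frames, in black, with the gene each overlaps, in red, and the gene upstream on the same strand, in green where there is one; points are libraries, auxin left of DMSO, and lines join group means. YDL158C and YDL016C run beside the green gene. YOR121C is nearer in slope to the green gene than to the red, though its difference from the green gene was also called. YBR099C and YER097W rise toward auxin while their overlapped genes fall, and YDR154C runs parallel to CPR1 (YDR155C). The slopes, but not the differences between lines, depend on the authors' scaling.

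After these values were seen, the comparison with the upstream gene was extended to all pairs of neighbouring same-strand features at most 500 bases apart. In 45 of these pairs the downstream feature is a member, at 1 to 383 bases from the gene, with a median of 134. The difference was called in 8 of them, 7 above and 1 below the gene, against 58 percent over all 1680 neighbouring pairs. The median absolute difference was 0.34, and r across the 45 pairs, all from the same 4 libraries, was 0.73. Leaving out DMSO replicate 1, auxin replicate 1 or auxin replicate 2 left 3, 3 and 4 called pairs, while leaving out DMSO replicate 2 gave 10.

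Reads limit these differences in low members, so the better counted are given apart. Among the 24 with a mean of at least 50 reads, 2 differences were called, those of YOR121C and YOR169C; the median absolute difference was 0.16 and r was 0.98. In the 1522 other neighbouring pairs whose downstream feature has at least 50 reads, 929 were called, the median absolute difference was 0.63 and r was 0.03. Among members with 10 to 50 reads, 6 of 21 differences were called with r of 0.51. In other pairs of that depth 25 of 90 were called with r of 0.22. The median absolute difference was 0.59 in both, so by this measure these members lay no nearer to the upstream gene than other pairs did. The 23 members that lie upstream of a same-strand gene did not follow that gene: 13 differences were called and r was 0.22.

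For 34 antisense frames both comparisons could be made. The member's change was nearer to the upstream gene in 23 and nearer to the antisense gene in 11, with median absolute differences of 0.38 and 0.84. Across these 34, r was 0.62 with the upstream gene and -0.16 with the antisense gene. The difference from the antisense gene was called in 17 and that from the upstream gene in 8. Both were called in 5, and in 12 only that from the antisense gene. Listed gene positions cover coding sequence only, so an untranslated end lies outside its gene's own feature. Whether the reads of these members come from the upstream gene's transcript was not tested.

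**Figure D5:**
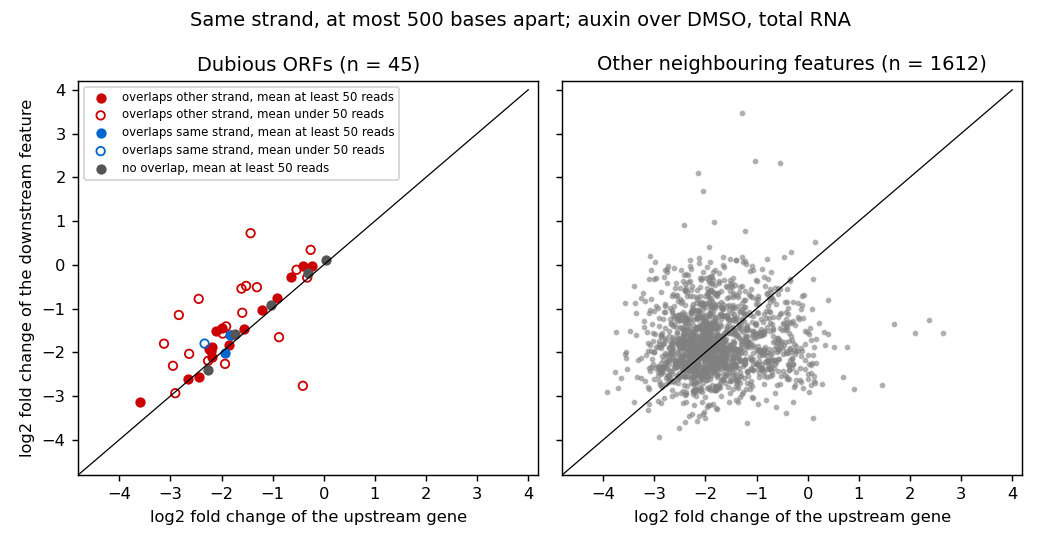
Log2 fold change, auxin over DMSO, of a feature (vertical) against the gene upstream of it on the same strand within 500 bases (horizontal), for 45 dubious open reading frames (left; filled with a mean of at least 50 reads) and 1612 other neighbouring pairs (right). The filled points on the left follow the line of equal change (r 0.98) and the cloud on the right does not; another scaling moves points along that line.

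Of the 117 members, 6 were called higher, and 5 more had a positive change that was not called. YER097W and YBR099C had means above 50 reads. YOR345C, YOR139C, YOR041C and YEL053W-A had means of 10.25 to 25 reads over all libraries and of 1.5, 4.5, 3.5 and 7 over the DMSO libraries, so they met the minimum of 10 only through their auxin reads. These 4 overlap the start of an antisense gene; since the minimum chose them for being raised, nothing is read from that position. YBR099C is antisense too, and none of the 5 has a same-strand gene within 500 bases upstream; the nearest to YBR099C is YBR101C, 513 bases away, at -2.07.

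YER097W, on chromosome V at bases 355140 to 355469, shares 1.21% of its length with the start of YER098W, a ubiquitin-specific protease, on the same strand. Its normalized counts were 255 and 310 after auxin, against 38.4 and 49.5 after DMSO. YER098W had 57.0 and 79.7 after auxin, against 317 and 375 after DMSO. The frame was higher in both auxin libraries where the gene was lower, with changes of 2.70 (SE 0.252, adjusted p = 5.43e-26 by edgeR) and -2.33 and a difference of 5.03 (SE 0.327). The nearest listed feature on its other side is the glutamate tRNA gene tE(UUC)E2, 134 bases away.

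YBR099C lies wholly inside MMS4, a subunit of a DNA-cutting enzyme of recombination, on the other strand (chromosome II, bases 442924 to 443307). It had 192 and 199 normalized counts after auxin, against 66.8 and 78.3 after DMSO. MMS4 had 97.9 and 93.2 after auxin, against 469 and 474 after DMSO. YBR099C was higher and MMS4 lower in both auxin libraries. The changes were 1.44 (SE 0.242, adjusted p = 4.02e-09 by edgeR) and -2.30, and their difference 3.74 (SE 0.303).

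The other 4 raised frames rest on few reads. YOR139C, across the start of SFL1, a repressor of flocculation genes, had 43 and 48 reads after auxin, against 8 and 1 after DMSO. After scaling this was a ratio of 8.21 (exact 95% interval for counting error 4.14 to 18.5), and SFL1 stood at -2.63. YOR345C, across the start of REV1, a deoxycytidyl transferase of DNA repair, had 15 and 23 reads after auxin, against 1 and 2 after DMSO, a ratio of 10.3 (3.26 to 52.1). YOR041C, across the start of YOR042W, a ubiquitin-binding protein of autophagy, had 23 and 19 reads after auxin, against 6 and 1 after DMSO, a ratio of 4.87 (2.17 to 12.9). In these 3 the auxin libraries lay above the DMSO libraries, and each overlapped gene was lower. YEL053W-A, across the start of RPL12A, had 24 and 13 reads after auxin, against 5 and 9 after DMSO. Its normalized counts overlapped between the groups, and its adjusted p of 0.0382 by edgeR was lost without DMSO replicate 1 or auxin replicate 1, and by DESeq2, where it was 0.265.

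Among lowered antisense frames, YKR047W stood furthest below its gene of those with at least 50 reads. It is antisense to the end of NAP1, a histone chaperone, and had 25.7 and 35.3 normalized counts after auxin, against 179 and 177 after DMSO. NAP1 had 2840 and 3281 after auxin, against 4727 and 5056 after DMSO. Both were lower after auxin in every library, at -2.54 (SE 0.272) and -0.68, with a difference of -1.87 (SE 0.244, adjusted p = 4.79e-08 by edgeR). YHR032W-A had no testable antisense partner; it stood at -2.60, beside -2.66 for YHR032W, a transporter gene 105 bases upstream, and -0.72 for YHR033W downstream. YLR040C, the MATalpha-specific member that is not itself dubious, had 9.5 and 23.5 normalized counts after auxin, against 148 and 148 after DMSO, and fell by 3.13 (SE 0.304) on the log2 scale.

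In 3 antisense frames among the named, the difference from the gene was not called. YKL136W stood at -2.10 against -1.64 for the adaptin gene APL2 (adjusted p = 0.148 by edgeR), and YKL137W upstream of it at -2.18. YGR182C stood at -1.44 against -1.10 for TIM13, a mitochondrial import factor, a difference of -0.31 (adjusted p = 0.557). YGR183C, 158 bases upstream of YGR182C, stood at -1.99. YGR182C differed more from it, by 0.57 (SE 0.230), also not called (adjusted p = 0.0605 by edgeR). YMR086C-A, with 8 and 5 reads after auxin and 32 and 24 after DMSO, stood at -2.39 (SE 0.473) beside -2.39 for the eisosome gene YMR086W. It is named for the small standard error of its pair, which is uncertain because the difference is near 0. The p-values of these 3 pairs do not show that the changes are alike.

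Frames that overlap nothing ranged from unchanged to strongly lowered, and 5 of them lay just downstream of a gene with a like change. YBR191W-A begins 8 bases after RPL21A, a ribosomal protein gene, and had 1688 and 1968 normalized counts after auxin, against 1298 and 2110 after DMSO. Its change was 0.11 (SE 0.190) beside 0.05 for RPL21A, while RIM2, a mitochondrial transporter gene downstream, stood at -2.19. YDR024W, between SES1, seryl-tRNA synthetase, and RPS11A, had 2564 and 2840 after auxin, against 2806 and 3340 after DMSO. The groups of both frames overlapped, and the changes of YDR024W, SES1 and RPS11A were -0.18, -0.32 and -0.25.

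YKL066W, 7 bases after YNK1, nucleoside diphosphate kinase, had 1003 and 1042 normalized counts after auxin, against 1809 and 2082 after DMSO. It stood at -0.93 (SE 0.190) beside -1.02 for YNK1. YGL188C stood at -1.59 beside -1.74 for YGL187C, subunit IV of cytochrome c oxidase, and YBR076C-A at -2.40 beside -2.27 for SLM4, of the EGO complex. All 3 were lower in every auxin library, and the 5 members without overlap that have such a neighbour all kept within 0.5 of it, none (0 of 5) being called different by edgeR. In 3 of the 13, among them YKL066W, the description names an overlap that the listed positions do not hold.

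YDR133C and YBR012C have no listed feature within 500 bases. YDR133C had 455 and 667 normalized counts after auxin, against 449 and 744.5 after DMSO, and was not called (-0.08, SE 0.189). YBR012C had 108 and 98.2 after auxin, against 289 and 169 after DMSO, and was lower (-1.17, SE 0.224). The DMSO libraries of YBR012C lay far apart, though both were above the auxin libraries.

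Of the 89 tested genes that members overlap, 85 were lower, or 95.5%, a share near the 92.3 percent of all tested features. Of these genes, 11 of 11 with a mitochondrial description were lower, with a median of -2.28, as were 74 of 75 others, with a median of -2.04. The 3 genes of cytosolic ribosomal proteins were not called, with a median of -0.18. DIT2, a sporulation-specific oxidase, was the 1 overlapped gene called higher, at 1.56, and the antisense YDR401W stood at -1.41. DIT2 had a mean of only 15.25 reads, most of them after auxin, and at this depth the minimum itself favours features that differ. Nothing is read from this pair. On the authors' scaling these are falls; under TMM the medians of the 3 groups were -0.51, -0.28 and 1.59.

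Newly synthesized RNA was available for few members, because its table as used here lists 2822 features, those with the lowest p-values in the authors' deposited table, where the highest log2 fold change is -2.20. It lists 6 members, or 5.13%, against 52.4% of the other tested protein-coding features. All 6 were lower, as 100 percent of the listed features were; the listing fixes this direction and nothing is read from it. YLR040C had 111 and 145 normalized counts after auxin, against 2362 and 2922 after DMSO, a change of -4.36 (SE 0.260). YDR154C had 1175 and 1114 after auxin, against 6782 and 7002 after DMSO. Its change was -2.59 in newly synthesized RNA and -0.36 in total RNA. YMR173W-A stood at -2.95, YKL066W at -2.84, YLR252W at -2.93 and YMR304C-A at -3.19, beside -1.06, -0.93, -2.65 and -1.60 in total RNA. The fractions were scaled separately and their difference was not tested.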

How the data were processed

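Raw counts per feature and size-factor-scaled counts (a signal that is never negative) were taken from the deposited tables of total and newly synthesized RNA. The deposited scaled value divided by the raw count gave each library's size factor, and the authors' factors were kept. Per the labels' protocols, RNA came from a kit that keeps the strand, after rRNA removal. Per the submitters' processing notes, reads were converted with bcl2fastq 2.17.1.14 and the build was sacCer3; the sources used here do not give the aligner, the counter or the origin of the size factors. The authors' deposited log2 fold changes and p-values were used only to see which features the newly synthesized RNA table lists (2822 of 6707 ranked, none with a p-value above 1.64e-31). Lengths deposited are coding lengths, and strand was read from the systematic names.

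Features with a mean of at least 10 raw counts over the 4 total RNA libraries were fitted with edgeR 4.0.16 (quasi-likelihood, R 4.3.3). Calls are at a Benjamini-Hochberg adjusted p under 0.05. Each overlapping or neighbouring pair was fitted as 8 values with a library block, so that scaling cancels; printed standard errors are the size of the estimate divided by the root of its F value, which is less certain for estimates near 0. On simulated counts for the 5577 features drawn, 84% of changes of 1 and 98% of changes of 2 on the log2 scale were called, and 0.186% of unchanged features. For the 147 pairs, 95% of differences of 2 were called, and smaller differences were not simulated. The simulation gave every feature the same fixed dispersion, and the single features no general fall. Changed features were drawn from all tested ones, with a median of 478 reads against 35.5 for members. These rates therefore do not give the power for members. Exact intervals at 95% cover counting error only, since reads carry no molecular identifiers.

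The members, lists and comparisons were chosen with earlier results of these data known. Members named are those called higher, per class the 5 lowest and 5 highest and the 5 most abundant, the 10 largest called pair differences and the 5 uncalled with the smallest error, 38 in all, with minimums of 50 reads and separate groups for the ranks. YOR170W, YDR401W, YGL102C, YMR304C-A and YPR170W-B were named after their values were seen. The comparison with neighbouring genes was added after the data were seen. Alternatives were TMM, DESeq2 1.42.0 and its size factors, limma 3.58.1 for pairs, other minimums, an overlap of at least 50%, a replicate block, and each library left out.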

Additional observations from a re-analysis of the deposited data

How the results depend on the processing

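Of the alternatives run, only another scaling turned the direction of the members' median change. The difference between the auxin and DMSO libraries in the per-library member median was -1.46 on the authors' scaling, 0.29 with TMM and 0.36 with DESeq2's size factors; leaving out 1 library gave -1.55 to -1.37. The median of the fitted log2 fold changes was -1.51, 0.22 and 0.30 on these scalings. Members called higher and lower were 37 and 13 with TMM (38 and 12 with DESeq2's size factors). By class they were 32 and 11 (33 and 10) with any overlap, 22 and 5 (22 and 5) on the opposite strand, 10 and 6 (11 and 5) on the same strand, and 5 and 2 (5 and 2) with none. Of the 6 members in newly synthesized RNA, 2 stayed lower with TMM. The following changes turned positive with TMM, and with DESeq2's size factors in brackets: YBR012C 0.57 (0.65), YBR126W-B 1.16 (1.23), YBR206W 0.92 (1.00), YDL016C 0.99 (1.07), YER148W-A 0.29 (0.36), YGL188C 0.17 (0.24), YGR182C 0.32 (0.40), YKL066W 0.84 (0.92), RGR1 (YLR071C) 0.49 (0.56), YML009W-B 1.20 (1.28), YMR173W-A 0.70 (0.77), YOL099C 0.72 (0.79), YOR169C 0.23 (0.31) and YOR309C 0.83 (0.90). Pair differences do not depend on scaling by construction. Without a count minimum, 11 members were called higher, 10 of them with overlap, 8 on the opposite strand and 2 on the same strand, and 1 without; 72 on the opposite strand and 17 without overlap were lower. With at least 50 reads, fewer members were tested: 2 were higher (2 with overlap, 1 on the opposite strand) and 41 lower (37 with overlap, 17 on the opposite and 20 on the same strand, and 4 with none), and 7 antisense members stood above and 3 below their gene. Counting only overlaps of at least 50% of the frame moved frames between classes, with 1 higher and 33 lower then without overlap, and left 1 same-strand frame above its gene. Leaving out 1 library gave 78 to 84 members lower and 5 to 7 higher, 16 to 17 antisense members above and 5 to 7 below their gene, 1 to 3 same-strand members above, and 3 to 10 members called against the upstream gene. Limma gave 1 same-strand member above its gene, with or without the replicate block, and with the block 3 and 8 members called against the upstream and downstream gene, instead of 8 and 13. Refitting and adjusting over pairs with at least 50 reads in both features gave 3 against the upstream gene, while 2 of the 24 well counted members were called in the fit of all pairs; the counts were 2 and 1 at gaps of at most 200 bases, where fewer pairs were tested; the cause of the other shifts was not tested. The labels share replicate numbers, but same-numbered libraries deviated with a correlation of -0.16 over 5097 features, so the numbers were not used as pairs. Under the replicate block, 5 of the 6 raised members were called, without YEL053W-A, and YDR154C was called lower (adjusted p = 0.00480 by edgeR); crossing the numbers also gave 5 of 6. Depth limits the members with 10 to 50 reads most.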
